A study of Mus musculus with 12 samples.

Results

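Tropomyosins and alpha-actinins, encoded in the mouse by Tpm1, Tpm2, Tpm3, Tpm4 and by Actn1, Actn2, Actn3, Actn4, were followed across 4 transfection groups of C2C12 cells, an established mouse myoblast line that can fuse into myotubes. Every array probe whose RefSeq accession belongs to one of these genes was taken, by name and without regard to its signal. This gave 15 of 39429 probes, 11 for the tropomyosins and 4 for the alpha-actinins, and 8 of the 20659 genes with a reference symbol. Of the 15 probes, 13 passed the filter on dim probes, and each of these 13 was well above background on all 12 arrays.

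Tropomyosins are coiled-coil dimers that polymerise head to tail along the groove of the actin filament. In striated muscle they hold the troponin complex and, with calcium, control the access of myosin to actin. Tpm1, Tpm2 and Tpm3 each give muscle and non-muscle isoforms through alternative starts and splicing, and cultured myoblasts are known to move from the non-muscle to the muscle isoforms as they differentiate. Alpha-actinins are antiparallel dimers that cross-link actin filaments. Actn2 and Actn3 make the isoforms of the sarcomeric Z-disc, whereas Actn1 and Actn4 make those of stress fibres and cell adhesions.

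All 4 groups were C2C12 cells grown in DMEM with serum and sampled 72 h after transfection, with 3 arrays labelled for each. The groups were a negative control, the plasmid pcDNA3.1, the plasmid pcDNA3.1-MEG3, which the labels give as overexpression of the long non-coding RNA MEG3, and an siRNA, which they give as knockdown of MEG3. The titles of the pcDNA3.1 arrays carry the word pat1, which is not explained, and only their descriptions name pcDNA3.1. What the negative control contained and which site the siRNA targets are not stated in the sources at hand. Nothing in the labels says that arrays of a group came from separate cultures, so the p-values below measure only how far these samples differed, and that spread may be technical. A level is the log2 of the background-corrected signal of a probe, with the 75th percentile of its array set to 0. Levels of different probes are not compared, but the marker sums given below add them.

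The arrays had 24151 to 29927 probes well above background and no saturated spot, and their 75th percentile lay at 1168 to 1601 except on negative control array 2, at 2266. Arrays 1 and 3 of the pcDNA3.1, pcDNA3.1-MEG3 and siRNA groups lay at one slide position and shared their spot deviations (correlations of 0.975, 0.940 and 0.986), and arrays 1 and 3 of the negative control differed by 0.637 times the noise between spots. Arrays 1 and 3 of each group were therefore averaged and counted as 1 sample, leaving 2 samples a group, named sample 1/3 and sample 2. Arrays 1 and 2 of the pcDNA3.1, pcDNA3.1-MEG3 and siRNA groups also differed by less than that noise (0.728, 0.768 and 0.977 times) and were kept apart as samples at different slide positions. The negative control pair that was averaged also lies at 2 positions, so it was joined by its small difference alone; kept apart, it gives 5814 in place of 3560 calls over all probes in siRNA minus negative control and 25 in place of 2 in pcDNA3.1-MEG3 minus pcDNA3.1. The member calls of these comparisons are then 7 in place of 5, and 0 as before. Negative control array 2 differed from its partners by 4.03 and 3.52 times that noise. Only the plasmid groups shared a slide and its scans, so in every other comparison slide and group cannot be told apart. Of the 3 Meg3 probes, A_51_P455997 and A_55_P2033407 exceeded background clearly on 3 of 3 arrays with the pcDNA3.1 label but on 0 of 3 with the pcDNA3.1-MEG3 label, which goes against those labels. The sources used here do not say whether the probes lie within the plasmid's insert. On siRNA arrays all 3 were at background, and on negative control arrays 1 was above it on 1 of 3, so the knockdown was not measurable. With A_51_P455997 the libraries labelled pcDNA3.1 lay 4.26 above the negative control (limma, adjusted p = 0.0052). Below, each group name stands for the libraries that carry that label.

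The windows of 250 bases before the start of Tpm1, Tpm2 and Tpm3 are shown because probes of these genes gave the called differences among the tropomyosins. Sequences come from RefSeq on GRCm38.p6, in which 7 of the 8 genes had an entry, and are printed 5′ to 3′ on the gene's strand. Capitals mark E-boxes (CANNTG, the site of MyoD-family factors) and the M-CAT element (CATTCC, the site of TEAD factors), searched on both strands.
Tpm1, chr9:67049214-67049463 (- strand): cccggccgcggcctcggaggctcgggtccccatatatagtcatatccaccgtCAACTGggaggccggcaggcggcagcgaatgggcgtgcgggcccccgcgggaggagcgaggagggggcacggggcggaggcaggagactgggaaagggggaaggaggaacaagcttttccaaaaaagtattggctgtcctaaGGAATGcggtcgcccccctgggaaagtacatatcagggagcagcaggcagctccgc
Tpm2, chr4:43523555-43523804 (- strand): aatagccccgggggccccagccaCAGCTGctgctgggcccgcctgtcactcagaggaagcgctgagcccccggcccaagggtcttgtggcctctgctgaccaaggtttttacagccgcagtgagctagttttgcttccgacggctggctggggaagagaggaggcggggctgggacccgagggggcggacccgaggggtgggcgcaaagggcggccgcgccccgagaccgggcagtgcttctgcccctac
Tpm3, first start, chr3:90072401-90072650 (+ strand): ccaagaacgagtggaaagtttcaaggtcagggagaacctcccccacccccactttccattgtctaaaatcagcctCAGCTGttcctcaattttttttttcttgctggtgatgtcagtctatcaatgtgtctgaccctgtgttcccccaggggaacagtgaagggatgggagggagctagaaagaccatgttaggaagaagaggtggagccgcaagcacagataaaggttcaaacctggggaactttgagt
Tpm3, second start, chr3:90079271-90079520 (+ strand): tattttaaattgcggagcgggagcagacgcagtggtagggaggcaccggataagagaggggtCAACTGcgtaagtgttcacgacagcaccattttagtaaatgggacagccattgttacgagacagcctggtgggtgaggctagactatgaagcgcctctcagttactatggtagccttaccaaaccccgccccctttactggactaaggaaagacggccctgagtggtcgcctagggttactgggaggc
The Tpm1 window held 1 E-box, CAACTG, at 198 to 193 bases before the start, and 1 M-CAT match, read as GGAATG on this strand, at 56 to 51 bases before it. The Tpm2 window held 1 E-box, CAGCTG. The first Tpm3 window held CAGCTG and the second CAACTG. Of all 32851 promoter windows of this length, 66.2% held an E-box and 12.6% an M-CAT match. No CArG box or MEF2 site, which 1.5% and 2.9% of all windows held, was matched in the windows of any of these genes.

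Tpm1, the gene of the alpha-tropomyosin of fast and cardiac muscle, had 5 probes, and those for accession NM_001164248 rose most on the siRNA arrays. Probe A_55_P2187038 read 2.18, 1.82 and 2.24 on negative control arrays 1, 2 and 3, and 1.62, 1.68 and 1.61 on the pcDNA3.1 arrays. It read 1.47, 1.45 and 1.49 on the pcDNA3.1-MEG3 arrays and 3.86, 3.86 and 3.83 on the siRNA arrays. No group overlapped another: the siRNA arrays were highest, followed by the negative control, pcDNA3.1 and pcDNA3.1-MEG3. Probe A_55_P2187043, for the same accession, gave the same order without overlap, with 2.35, 1.87 and 2.40 on the negative control arrays and 3.89, 3.83 and 3.87 on the siRNA arrays. The pcDNA3.1 and pcDNA3.1-MEG3 arrays lay at 1.65 to 1.73 and at 1.52 to 1.54.

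The other Tpm1 probes moved less. A_55_P2032192 (NM_001164249), the brightest probe of the gene, read 3.37, 3.72 and 3.26 on the negative control arrays, 2.94 to 2.98 on pcDNA3.1, 3.25 to 3.32 on pcDNA3.1-MEG3 and 3.95 to 4.08 on siRNA. The siRNA arrays stood above all others and the pcDNA3.1 arrays below all others, while pcDNA3.1-MEG3 and the negative control overlapped. A_55_P2078680 (NM_001164251), a dim probe, lay at -4.33 to -4.01 on siRNA, -4.99 to -4.49 on the negative control, -4.96 to -4.52 on pcDNA3.1-MEG3 and -5.67 to -5.46 on pcDNA3.1. Its siRNA arrays were again above all others. A_55_P2187053 (NM_001164255) had group means within 0.13 of each other, from -1.07 ± 0.56 on siRNA to -0.93 ± 0.09 on pcDNA3.1-MEG3 (SD, n = 2), and all groups overlapped.

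Tpm2, the gene of beta-tropomyosin, was highest on the negative control arrays with both of its probes (NM_009416). A_52_P315976 read 3.25, 3.45 and 3.47 on negative control arrays 1, 2 and 3 and 2.66, 2.74 and 2.61 on siRNA. The plasmid groups were lower still, at 2.11 to 2.15 for pcDNA3.1 and 2.11 to 2.35 for pcDNA3.1-MEG3, and overlapped each other. A_55_P2121408 read 1.30, 1.22 and 1.37 on the negative control, 0.97, 0.99 and 0.96 on pcDNA3.1-MEG3, 0.13, 0.21 and 0.08 on siRNA and 0.06, 0.02 and 0.04 on pcDNA3.1. With this probe pcDNA3.1-MEG3 stood above siRNA and no groups overlapped, so the probes of Tpm2 gave different orders below the negative control.

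Tpm3, the gene of the slow-muscle alpha-tropomyosin and of widely made non-muscle forms, had 3 probes for 3 accessions. The brightest, A_55_P2090209 (NM_001253738), read 4.56, 4.55 and 4.55 on the negative control and 4.81, 5.01 and 4.82 on siRNA. The plasmid arrays lay at 5.06 to 5.12 for pcDNA3.1 and 5.02 to 5.10 for pcDNA3.1-MEG3 and overlapped each other. A_55_P2090205 (NM_001253740) ran the other way between pcDNA3.1 and the rest. It read -5.10, -5.42 and -5.20 on pcDNA3.1, -4.77, -3.80 and -4.64 on the negative control, -3.47, -3.46 and -3.47 on pcDNA3.1-MEG3 and -3.33, -3.17 and -3.38 on siRNA, with no overlap. A_55_P2246235 (NM_022314) passed the background flag on 2 of 3 negative control arrays and on none of the other 9 arrays, and was not tested.

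Tpm4, whose product is a non-muscle tropomyosin of stress fibres, had 1 probe, A_51_P225592 (NM_001001491). It read 6.77, 5.98 and 6.66 on the negative control, 6.01, 6.07 and 5.94 on pcDNA3.1, 5.58, 5.69 and 5.54 on pcDNA3.1-MEG3 and 6.34, 6.61 and 6.27 on siRNA. Array 2 of the negative control lay below arrays 1 and 3. The siRNA, negative control and pcDNA3.1 groups overlapped their neighbours in this order, and pcDNA3.1-MEG3 lay below all of them.

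**Figure D1:**
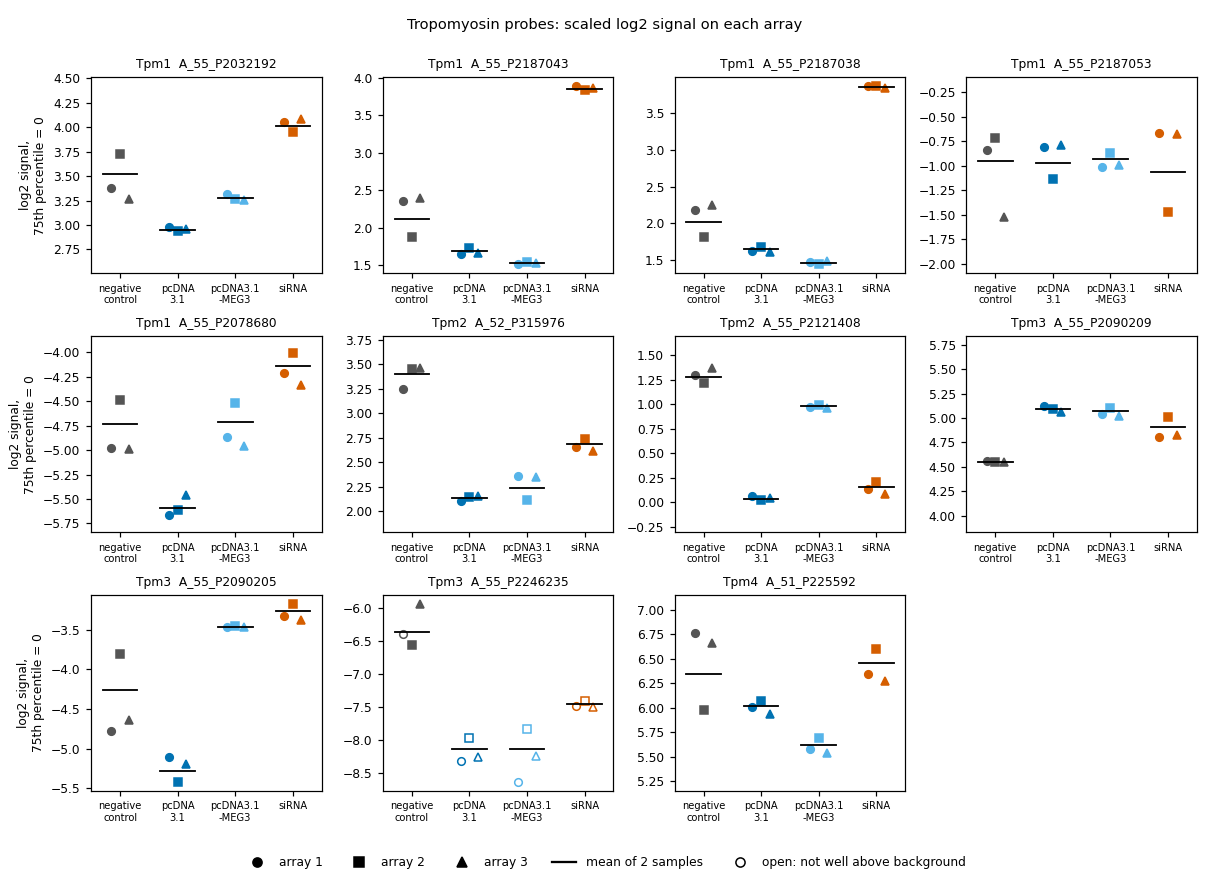
Scaled log2 signal (array 75th percentile = 0) of the 11 tropomyosin probes on each of the 12 arrays, by transfection group; bars are the means of 2 samples and open symbols are arrays on which the probe was not well above background. The siRNA arrays stand above all others for A_55_P2187038 and A_55_P2187043 of Tpm1, at 3.83 to 3.89, and the negative control arrays stand highest for both Tpm2 probes.

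The sarcomeric alpha-actinin genes were both brightest on the siRNA arrays. Actn3, whose product is the Z-disc alpha-actinin of fast fibres, read 0.11, -0.10 and 0.02 on the siRNA arrays with A_52_P656699 (NM_013456). It read -2.04, -1.09 and -2.07 on the negative control, -1.75, -1.97 and -1.72 on pcDNA3.1 and -1.28, -1.31 and -1.32 on pcDNA3.1-MEG3. The siRNA arrays lay above all others, and the negative control arrays spanned both plasmid groups, which did not overlap each other. Actn2, whose product is the cardiac and general skeletal Z-disc alpha-actinin, was close to background with A_51_P108266 (NM_033268). It passed the background flag on 2 of 3 siRNA arrays, which read -5.05, -4.47 and -4.90, on 1 of 3 negative control arrays, which read -6.45, -8.00 and -5.72, and on 0 of 6 plasmid arrays. The probe was not tested because no group measured it on every array, and no fold is given because siRNA array 1 was itself not above background.

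The non-muscle alpha-actinin genes differed from each other. Actn4, whose product cross-links actin in stress fibres, read 4.35, 3.98 and 4.10 on the negative control with A_51_P394788 (NM_021895), 3.87, 3.95 and 3.90 on pcDNA3.1, 3.79, 3.73 and 3.80 on pcDNA3.1-MEG3 and 4.51, 4.33 and 4.49 on siRNA. The siRNA and negative control arrays overlapped, and pcDNA3.1 and then pcDNA3.1-MEG3 lay below them. Actn1, whose product sits in adhesions and stress fibres, read -2.67, -0.37 and -2.57 on the negative control with A_51_P347862 (NM_134156). It lay at -2.22 to -1.99 on pcDNA3.1 and read -0.87, -0.82 and -0.82 on pcDNA3.1-MEG3 and -1.10, -1.09 and -1.14 on siRNA. Arrays 1 and 3 of the negative control were below every other array and array 2 was above every other array, so the negative control spanned all groups (mean -1.50 ± 1.59, SD, n = 2).

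**Figure D2:**
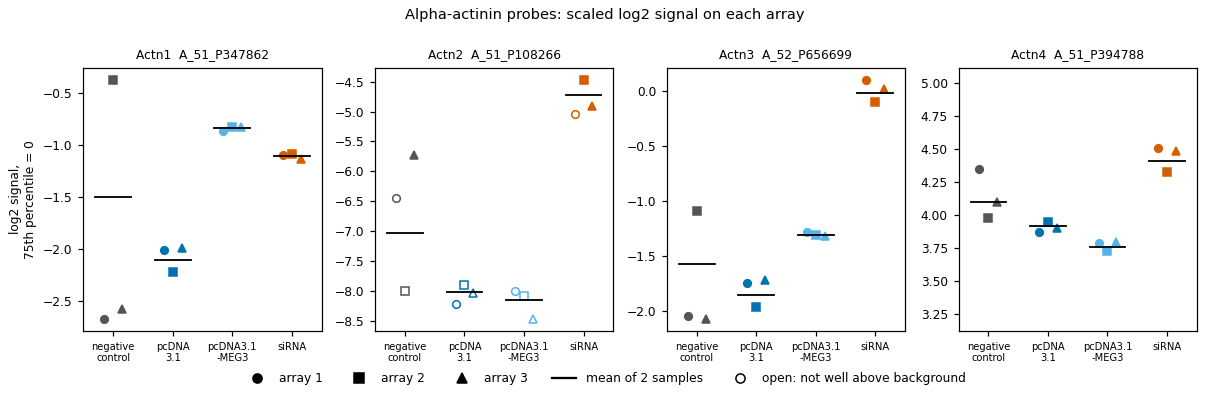
Scaled log2 signal (array 75th percentile = 0) of the 4 alpha-actinin probes on each of the 12 arrays, by transfection group; bars are the means of 2 samples and open symbols are arrays on which the probe was not well above background. Actn3 stands highest on the siRNA arrays, at -0.10 to 0.11, and Actn1 spreads from -2.67 to -0.37 on the negative control arrays.

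The libraries labelled siRNA were compared with those labelled negative control. Of the 13 member probes tested, 3 rose, 2 fell and 8 did not pass limma's test at an adjusted p of 0.05 (Benjamini-Hochberg over 29575 probes). Of all probes 12% were called. A test of the 21826 probes well above background on all 12 arrays, as these 13 were, called 17.3%. The members' median difference was 0.40 and that of all probes 0.05. Tpm1 rose by 1.84 ± 0.17 (log2, SE, n = 2 samples a group), or 3.57-fold, with A_55_P2187038 (adjusted p = 0.0033, 95% interval 1.43 to 2.25). With A_55_P2187043 it rose by 1.73 ± 0.19 (adjusted p = 0.0060). Actn3 rose by 1.55 ± 0.32 (adjusted p = 0.034). Tpm2 fell by 0.72 ± 0.14 with A_52_P315976 (adjusted p = 0.033) and by 1.12 ± 0.13 with A_55_P2121408 (adjusted p = 0.0067). The Tpm1 probes for NM_001164248 and A_55_P2121408 of Tpm2 stayed past the threshold when any one of the 8 samples was left out of the fit over 4 groups. With the siRNA and negative control groups fitted alone none of the 5 calls remained (adjusted p 0.0929 to 0.243), and 188 of all probes were called in place of 3560. Actn3 lost its call without either pcDNA3.1 sample, either pcDNA3.1-MEG3 sample or siRNA sample 1/3 (adjusted p 0.0725 to 0.0883), and A_52_P315976 without any one pcDNA3.1, pcDNA3.1-MEG3 or siRNA sample (0.0528 to 0.109).

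Among those not past limma's threshold, A_55_P2090205 of Tpm3 differed by 0.99 ± 0.30 (adjusted p = 0.092) and A_55_P2078680 of Tpm1 by 0.60 ± 0.23 (adjusted p = 0.16). The brightest Tpm1 probe, A_55_P2032192, gave 0.49 ± 0.17 (adjusted p = 0.12), and A_55_P2187053 of Tpm1 gave -0.12 ± 0.31 (adjusted p = 0.85). The call for Tpm1 thus rests on the probes for NM_001164248. For A_55_P2090205 of Tpm3 the difference was 1.44 without negative control sample 2 and 0.54 without negative control sample 1/3. Actn1 gave 0.40 ± 0.67, with 1.52 (adjusted p = 0.0050) without negative control sample 2 and -0.73 (adjusted p = 0.018) without negative control sample 1/3.

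The libraries labelled pcDNA3.1-MEG3 were compared with those labelled pcDNA3.1, within a slide. The Meg3 probes go against these labels, and every sign in this comparison would turn if the labels were exchanged. None of the 13 member probes passed limma's test, against 0.00675% of 29618 probes, which is 2 probes; at an unadjusted p under 0.05 the counts were 3 member probes and 3482 of all probes. The largest member difference was that of A_55_P2090205 of Tpm3, at 1.82 ± 0.30 (adjusted p = 0.15), with 1.80 and 1.73 within the scans of the slide. Actn1 differed by 1.27 ± 0.67 (adjusted p = 0.51, within scans 1.27 and 1.16). A_55_P2121408 of Tpm2 differed by 0.94 ± 0.13 (adjusted p = 0.13, within scans 0.94 and 0.92). A_55_P2078680 of Tpm1 differed by 0.87 ± 0.23 (adjusted p = 0.25, within scans 0.94 and 0.51), and Actn3 by 0.55 ± 0.32 (adjusted p = 0.54, within scans 0.56 and 0.40). The arrays labelled pcDNA3.1-MEG3 lay above all arrays labelled pcDNA3.1 with each of these 5 probes and with A_55_P2032192 of Tpm1. They lay below all of them with the Tpm4 and Actn4 probes and with A_55_P2187038 and A_55_P2187043 of Tpm1. The share of all probes whose arrays separate in this way was not counted. The fit draws its error from all 4 groups: with the plasmid groups fitted alone, 3 member probes rose, A_55_P2090205, A_55_P2121408 and Actn1 (adjusted p 0.0129 to 0.0174), and with either one of the negative control samples left out the same 3 rose (adjusted p 0.0063 to 0.0072). All-probe counts were 3676 with the plasmid groups alone and 3927 without either of the negative control samples, in place of 2.

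The libraries labelled pcDNA3.1 were set against those labelled negative control, with the higher Meg3 signal in the former. Whether those libraries hold the plasmid without insert was not tested. Of the 13 member probes 1 rose, 2 fell and 10 did not pass, against 17.1% of 29617 probes called. A test of the 21826 probes well above background on all 12 arrays, as these 13 were, called 22.9%. Tpm2 fell with both probes, by 1.27 ± 0.14 with A_52_P315976 (adjusted p = 0.0060) and by 1.24 ± 0.13 with A_55_P2121408 (adjusted p = 0.0045). Tpm3 rose by 0.54 ± 0.13 with A_55_P2090209 (adjusted p = 0.046). The members' median was -0.43 and that of all probes 0.19. Without pcDNA3.1 sample 1/3 neither Tpm2 probe passed (adjusted p 0.0617 and 0.0520) and no member probe was called. The Tpm3 call was lost without any one pcDNA3.1 or pcDNA3.1-MEG3 sample (adjusted p 0.115 to 0.215), and with arrays centred on their median the difference was 0.09 (adjusted p = 0.70). With that centring 8 member probes fell and none rose, against 21.3% of all probes called, of which 18.7% were higher.

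Differences of similar size that did not pass in this comparison were -1.03 ± 0.30 for A_55_P2090205 of Tpm3 (adjusted p = 0.069), -0.85 ± 0.23 for A_55_P2078680 of Tpm1 (adjusted p = 0.058) and -0.57 ± 0.17 for A_55_P2032192 of Tpm1 (adjusted p = 0.072). Actn1 differed by -0.61 ± 0.67 (adjusted p = 0.54). Without negative control sample 2 its difference was 0.51 (adjusted p = 0.040) and without negative control sample 1/3 it was -1.73 (adjusted p = 0.0031), so its direction turned on these libraries.

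The siRNA arrays were also set against the mean of both plasmid groups, which exchanged plasmid labels would leave as it is. In this comparison 8 of 13 probes rose, none fell and 5 did not pass, against 19.3% of 29571 probes called. A test of the 21826 probes well above background on all 12 arrays, as these 13 were, called 25.3%. The members' median was 0.63 and that of all probes -0.12. Tpm1 rose with 4 of its 5 probes, by 2.30 ± 0.15 with A_55_P2187038 (adjusted p = 6.1e-04), 2.24 ± 0.17 with A_55_P2187043 (adjusted p = 0.0010), 1.01 ± 0.20 with A_55_P2078680 (adjusted p = 0.022) and 0.90 ± 0.15 with A_55_P2032192 (adjusted p = 0.013). Actn3 rose by 1.56 ± 0.27 (adjusted p = 0.015) and Actn4 by 0.57 ± 0.13 (adjusted p = 0.033). Tpm3 rose by 1.11 ± 0.26 with A_55_P2090205 (adjusted p = 0.037), while its brightest probe, A_55_P2090209, gave -0.17 ± 0.12 (adjusted p = 0.32). The plasmid groups differ with A_55_P2090205, whose means were -3.26 on siRNA, -3.46 on pcDNA3.1-MEG3 and -5.28 on pcDNA3.1, so the difference lies in the main against pcDNA3.1. Tpm2 rose by 0.50 ± 0.12 with A_52_P315976 (adjusted p = 0.041) but gave -0.35 ± 0.11 with A_55_P2121408 (adjusted p = 0.080), which passed as lower under 7 of its 21 alternatives. The means of A_55_P2121408 were 0.16 on siRNA, 0.04 on pcDNA3.1 and 0.98 on pcDNA3.1-MEG3. With this probe siRNA was thus lower than pcDNA3.1-MEG3 but not lower than pcDNA3.1. Tpm4 differed by 0.63 ± 0.23 (adjusted p = 0.11).

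The Tpm1 probes for NM_001164248 kept their calls without any one sample. Actn4, A_52_P315976 and A_55_P2090205 lost theirs without any one pcDNA3.1, pcDNA3.1-MEG3 or siRNA sample (adjusted p 0.0609 to 0.153), and A_55_P2032192 without any one plasmid sample (0.0519 to 0.0623). A_55_P2078680 lost its call without any one plasmid sample or siRNA sample 2 (0.0548 to 0.0779), and Actn3 without pcDNA3.1 sample 2 or either pcDNA3.1-MEG3 sample (0.0554 to 0.0631). Each of these fits leaves 1 sample in the group concerned. The number of member calls was lowest without a plasmid sample and highest without a negative control sample. The number of calls over all probes was lowest and highest in the same fits, so these member counts follow the general rate of calling. The 4 comparisons share groups, so their results are not independent of each other.

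**Figure D3:**
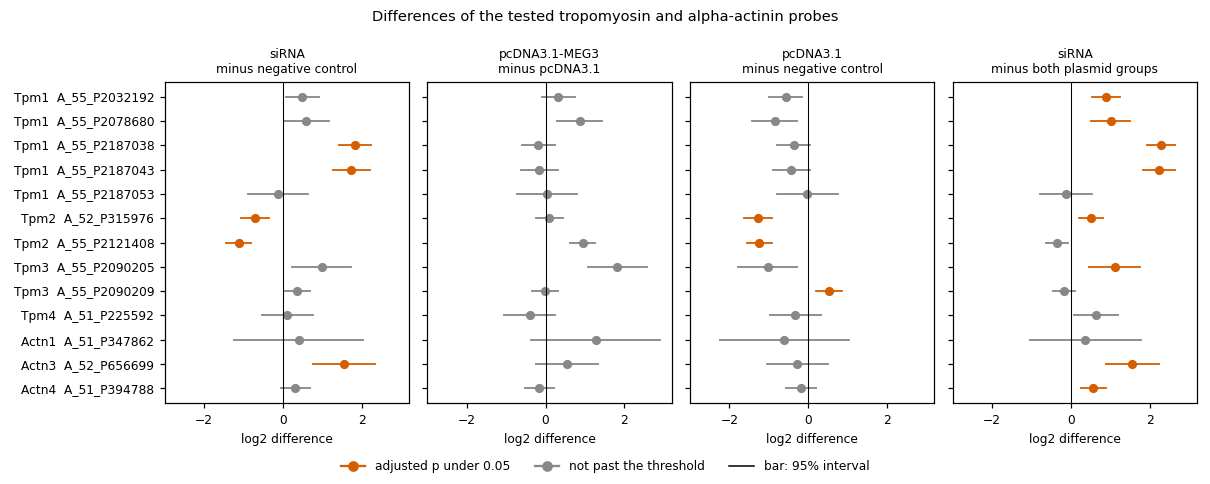
Log2 difference of the 13 tested member probes in each of the 4 comparisons, with 95% intervals from limma; coloured points passed an adjusted p of 0.05. Tpm1 probes A_55_P2187038 and A_55_P2187043 lie at 1.84 and 1.73 in siRNA minus negative control and at 2.30 and 2.24 in siRNA minus both plasmid groups, and Tpm2 lies below 0 in both comparisons with the negative control.

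Probes of one gene can match different transcripts, and the change of their ratio within an array was tested for 6 pairs, each of a further probe and the brightest probe of Tpm1, Tpm2 or Tpm3. In siRNA minus both plasmid groups 4 of the 6 ratios changed, against 7.06% of 4770 probe pairs over all genes. The 6 pairs are not independent. All Tpm1 pairs share the denominator A_55_P2032192, and the called Tpm1 ratios come from probes annotated to the same transcript. The ratio to A_55_P2032192 of Tpm1 rose by 1.40 ± 0.24 for A_55_P2187038 (adjusted p = 0.030) and by 1.35 ± 0.26 for A_55_P2187043 (adjusted p = 0.041). That of A_55_P2090205 to A_55_P2090209 of Tpm3 rose by 1.28 ± 0.27 (adjusted p = 0.048), and that of A_55_P2121408 to A_52_P315976 of Tpm2 fell by 0.85 ± 0.16 (adjusted p = 0.035). In pcDNA3.1 minus negative control the Tpm3 ratio fell by 1.57 ± 0.31 (adjusted p = 0.036), 1 of 6 against 8.81% of 4802 pairs.

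Relative to its mean over the 8 samples, the Tpm3 ratio stood at -1.25, -1.54 and -1.28 on the pcDNA3.1 arrays and at 0.46, 0.41 and 0.48 on the pcDNA3.1-MEG3 arrays. It stood at 0.84, 0.79 and 0.77 on siRNA and at -0.36, 0.62 and -0.22 on the negative control, so only the pcDNA3.1 arrays lay below all others. For A_55_P2187038 of Tpm1 the ratio stood at 0.95 or above on all siRNA arrays and at -0.71 to 0.18 on the other 9 arrays. The Tpm2 ratio, of 2 probes annotated to the same transcript, stood at -0.53 on the siRNA arrays. It stood at -0.12 to -0.04 on pcDNA3.1 and 0.62 to 0.88 on pcDNA3.1-MEG3, so its fall lies in the main against pcDNA3.1-MEG3. None of the 6 ratios passed in siRNA minus negative control or in pcDNA3.1-MEG3 minus pcDNA3.1, where 4.09% and 0% of all pairs did; at an unadjusted p under 0.05 the counts were 2 and 2 of 6, against 20.3% and 16.8% of all pairs. Each called ratio of siRNA minus both plasmid groups lost its call without any one pcDNA3.1, pcDNA3.1-MEG3 or siRNA sample (adjusted p 0.0671 to 0.166), and the Tpm3 ratio of pcDNA3.1 minus negative control without any one plasmid sample (0.0982 to 0.179).

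**Figure D4:**
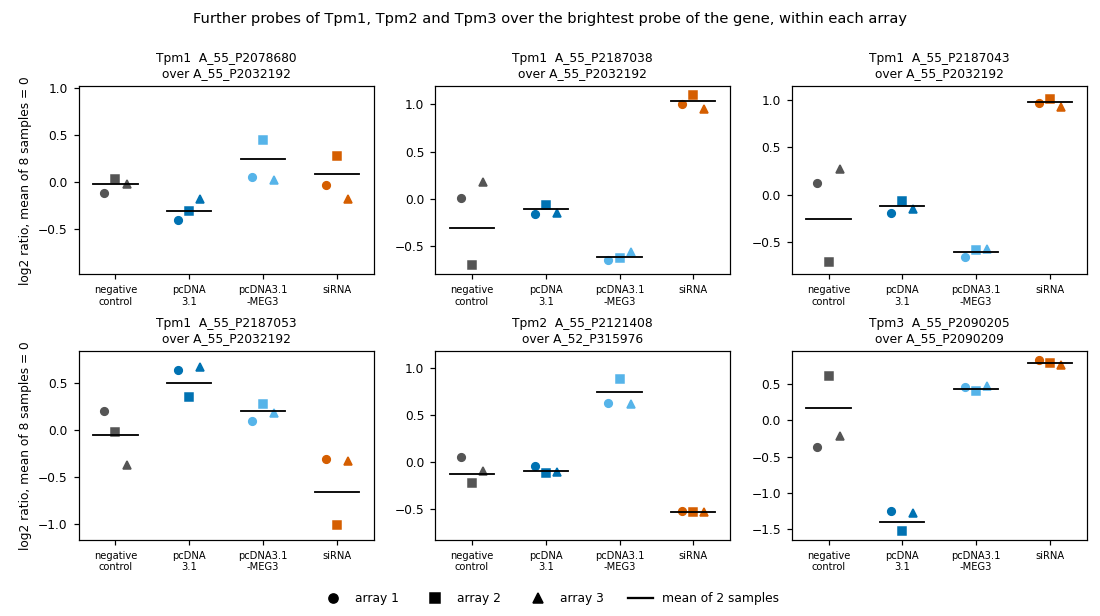
Log2 ratio of 6 further probes of Tpm1, Tpm2 and Tpm3 to the brightest probe of the same gene within each array, set to a mean of 0 over the 8 samples; bars are group means. The Tpm3 ratio lies at -1.54 to -1.25 on pcDNA3.1 arrays and above -0.37 on all others, and the ratios of A_55_P2187038 and A_55_P2187043 of Tpm1 are highest on the siRNA arrays.

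Partners of tropomyosin on the thin filament (actins, troponins, tropomodulins, leiomodins, nebulins, caldesmon and calponins) were taken as a list of 27 genes, of which 25 were tested with 1 probe each. In siRNA minus negative control 13 of the 25 rose, none fell and 12 did not pass, with a list median of 0.80, against 12% of all probes called and their median of 0.05. Actc1, the cardiac alpha-actin made early in muscle differentiation, rose by 7.15 (adjusted p = 0.0013), with its spots on siRNA array 1 left out as outlying. Tnni2, the fast troponin I, rose by 4.48 (adjusted p = 0.0014) and Neb, the thin filament ruler nebulin, by 4.44 (adjusted p = 5.2e-04). The lowest were Lmod1, a leiomodin of smooth muscle, at -0.97 (adjusted p = 0.21), Tmod3, a tropomodulin that caps filaments, at -0.01, and Actg1, the cytoplasmic gamma-actin, at 0.06. Lmod1 was well above background only on the negative control arrays and passed the filter on dim probes through that group alone. Lmod2 and Tmod1 passed the filter through the siRNA group alone. The rises of these genes, counted here and against both plasmid groups, follow in part from that filter, as does the fall of Lmod1 below. In pcDNA3.1 minus negative control 2 of the list rose and 7 fell (median -0.38, against 17.1% of all probes called), in pcDNA3.1-MEG3 minus pcDNA3.1 none passed (median -0.13), and in siRNA minus both plasmid groups 20 rose and none fell (median 2.87, against 19.3%). The 13 calls of siRNA minus negative control became 12 with arrays centred on their median, against 10.8% of all probes. Without negative control sample 2, calls became more numerous in the list and over all probes.

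Partners of alpha-actinin at the Z-disc and at adhesions were a list of 30 genes, each tested. In siRNA minus negative control 10 rose, none fell and 20 did not pass, with a median of 0.45, against 12% of all probes called. Pdlim3, a PDZ and LIM protein that binds alpha-actinin at the Z-disc, rose by 7.01 (adjusted p = 2.3e-04) and Ttn, the titin gene, by 4.51 (adjusted p = 0.0011). Myoz2, the calsarcin of slow and cardiac muscle, passed the background flag on 3 of 3 siRNA and 0 of 3 negative control arrays (adjusted p = 7.4e-04). Myoz2 and Myot passed the filter on dim probes through the siRNA group alone. Their rises, counted here and against both plasmid groups, follow in part from that filter. The lowest were Synpo2 at -0.36 (adjusted p = 0.29) and Synpo at -0.33 (adjusted p = 0.28), actin-bundling synaptopodins, and Pdlim2 at -0.16 (adjusted p = 0.56). In pcDNA3.1 minus negative control 1 rose and 2 fell (median 0.0025), a smaller share than the 17.1% of all probes called, in pcDNA3.1-MEG3 minus pcDNA3.1 none passed (median -0.11), and in siRNA minus both plasmid groups 14 rose and none fell (median 0.63, against 19.3% of all probes). Without negative control sample 2, calls of siRNA minus negative control became more numerous in the list and over all probes. With median centring, pcDNA3.1 minus negative control gave none that rose and 9 that fell, against 21.3% of all probes called.

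Of the marker genes of the labelled cells, most were higher on the siRNA arrays than on the negative control arrays. Of 10 myoblast and myotube markers, 7 rose in siRNA minus negative control, against 12% of all probes called. Among them Myh3, the embryonic myosin heavy chain, rose by 7.05 and Myog, the myogenin gene, by 3.46. In that comparison 1, Myf5, fell by 2.87, and 2 did not pass, Des at -0.22 and Mef2c at 0.60. A summed level is the log2 of the added linear signals of a list, on which its brightest probes weigh most. For the myoblast and myotube markers it was 1.22 on the negative control, 1.21 on pcDNA3.1, 1.56 on pcDNA3.1-MEG3 and 4.49 on siRNA. Like sums can hide opposite changes: in pcDNA3.1 minus negative control 1 of these markers rose and 1, Myf5, fell, at -4.44. None of 4 tested fibroblast markers and none of 4 tested smooth muscle markers passed in siRNA minus negative control. In siRNA minus both plasmid groups, 3 of the 4 smooth muscle markers rose, Cnn1 by 3.21, Tagln by 3.17 and Acta2 by 0.79. Of the 4 fibroblast markers 2 rose there, Postn by 3.35 and Col1a1 by 2.21. Of the 10 myoblast and myotube markers 7 rose there, against 19.3% of all probes called, and no marker of these 3 lists fell. Smooth muscle markers, of which Acta2 and Cnn1 are also in the thin filament list, summed to 7.14, 6.58, 6.15 and 7.24 in the same order of groups, and fibroblast markers to 6.73, 5.34, 4.83 and 7.36. Tagln and Cnn1 fell by 3.14 and 2.33 in pcDNA3.1 minus negative control, and Postn by 2.65, beside the fall of Tpm2 there. The other tested markers of these lists did not pass there: Acta2 gave -0.46 and Smtn 0.12 of the smooth muscle list, and Col1a1 -1.24, Thy1 0.81 and Pdgfra -0.01 of the fibroblast list (adjusted p 0.057 to 0.98). Myh11, the defining smooth muscle myosin, was well above background on no array. Of 5 adipocyte markers none passed in siRNA minus negative control (sums of 0.71 to 0.95), and of 4 macrophage markers Csf1r rose by 0.81 (sums of -0.48 to 0.60). The part of these markers in the member differences was not tested. These are RNA levels of whole cultures, in which fewer cells of a type and less RNA per cell cannot be told apart.

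Scaling moved the balance of calls over all probes. The share of called probes that were higher was 60.6% in siRNA minus negative control and 38.8% with median centring. In pcDNA3.1 minus negative control it was 61.6%, against 18.7% with median centring, 45.1% after quantile normalisation and 44.6% in the series table. In siRNA minus both plasmid groups it was 53.9%, against 77.0% with median centring and 67.3% after quantile normalisation. Median centring moved the median of all probes from 0.05 to -0.14, from 0.19 to -0.25 and from -0.12 to 0.11 in these comparisons. The called differences of the Tpm1, Tpm2 and Actn3 probes kept their direction under each of these scalings.

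The genes whose pattern over the 8 samples was most like that of a member were sought by Pearson correlation among 16831 genes, for probes whose group means spanned at least 2. Of the 7 genes with a tested probe, none had a brightest probe that did so; the untested Actn2 probe, near background, spanned 3.44. Among the further probes, which were added after their values were seen, A_55_P2187038 of Tpm1 was most like Nts, the neurotensin gene (r = 0.999), Sox11 and Tnnt1, the slow troponin T gene (both 0.997). A_55_P2187043 was most like Tnnt1 and Nts (both 0.998) and Mal (0.997). These 4 genes were highest on siRNA and lowest on pcDNA3.1-MEG3. A_55_P2090205 of Tpm3 was most like G0s2 (0.973), Exoc6 (0.955) and Hoxa10 (0.955), all lowest on pcDNA3.1. The 8 samples fall into 4 groups, so these correlations describe group means in the main and carry no test.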

How the data were processed

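RNA of transfected C2C12 cells was labelled with Cy3 and read on 12 Agilent 1-colour arrays. Per the file headers, the authors deposited intensity values from Agilent Feature Extraction 11.0.1.1 with a header build of mm9; the deposited series table holds the authors' processed intensity values, which are positive linear values whose normalisation is not stated; they ranked nearly as the scanner signals did (lowest Spearman correlation 0.9999 per array), and their column medians were 276 to 277. Outlier spots and 1377 control spots per array were dropped, and the remaining spots of each probe were averaged. The log2 of the deposited signal minus each array's 75th percentile was tested with limma 3.58.1 in R 4.3.3 (lmFit and eBayes, 1 fit over 4 groups of 2 samples, 4 residual degrees of freedom, prior 1.92). A probe was kept if some group had it flagged well above background on all 3 arrays (29626 probes), p-values were adjusted by Benjamini-Hochberg over all probes tested, and the threshold was 0.05. The number of arrays limits the precision.

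Symbols came from RefSeq accessions: 27234 of 39429 probes had one and 12195 did not. Where 1 probe stands for a gene it is the brightest over the 8 samples. Every member probe was described; of each partner list the 3 highest and 3 lowest in siRNA minus negative control were named. The members and lists were chosen with earlier results of these data known. The mean spot signal planned for the normexp alternative was not used here, and the median spot signal took its place. The ratio of probes of 1 gene, the likeness of further probes, the list counts under other settings and a second normexp setting were added after seeing the data. Scripts were tested on simulated data. Alternatives covered scaling, background correction, the filter on dim probes, the treatment of arrays 1 and 3, the groups in the fit, the replicate number as a block and leaving out each sample.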

Additional observations from a re-analysis of the deposited data

How the results depend on the processing

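With 2 samples a group, counts moved with the settings. Over all probes the calls of siRNA minus negative control, pcDNA3.1-MEG3 minus pcDNA3.1, pcDNA3.1 minus negative control and siRNA minus both plasmid groups numbered 3560, 2, 5071 and 5706, and those of member probes 5, 0, 3 and 8, here always in this order. Leaving out 1 sample at a time gave 1181 to 9252, 0 to 3927, 634 to 11242 and 1984 to 11737 calls, and 3 to 8, 0 to 3, 0 to 8 and 2 to 11 member calls; the highest counts came without a negative control sample. The 12 arrays as 12 samples gave 11937, 4378, 14358 and 15424 calls with 10, 3, 8 and 11 member calls. With 9 samples, keeping negative control arrays 1 and 3 apart, there were 5814, 25 and 7726 calls in the first 3 comparisons. The compared groups alone gave 188, 3676 and 11737 calls in these comparisons other than pcDNA3.1 minus negative control, with 0 and 3 member calls in the first and second. Without a filter on dim probes, siRNA minus negative control gave 2263 calls, or 5.75% of all probes, and 3 member calls. In siRNA minus both plasmid groups there were then 5 member calls, against 11.1% of all probes. The filter for all 12 arrays gave 25 calls in pcDNA3.1-MEG3 minus pcDNA3.1. In pcDNA3.1 minus negative control it gave 6 member calls, against 22.9% of all probes. Median centring, quantile normalisation and the series table gave 8, 5 and 5 member calls there, against 21.3%, 19.6% and 19.9% of all probes. With 1 probe per gene, 2 and 4 members were called in siRNA minus negative control and siRNA minus both plasmid groups. Of all probes tested under that setting 12.4% and 18.7% were called.

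Normexp on all spots gave 0 limma calls in all 4 comparisons (1820, 309, 1760 and 1378 probes at an unadjusted p under 0.05) and 0 member calls. On pcDNA3.1 arrays 1 and 3 and siRNA array 2 a few spots had a local background of up to 47985, 56502 and 264044, and the corrected medians were 1145, 1021 and 1270 against 131 to 181 on the others. Without spots flagged for outlying background all medians were 129 to 177, and calls were 13 in pcDNA3.1-MEG3 minus pcDNA3.1 and 3322 in pcDNA3.1 minus negative control. Normexp on all spots turned the sign of A_55_P2078680 of Tpm1 to -1.15 in pcDNA3.1-MEG3 minus pcDNA3.1 and 1.22 in pcDNA3.1 minus negative control, of A_55_P2090205 of Tpm3 to -0.56 and 0.90, and of the Tpm3 ratio in pcDNA3.1 minus negative control to 0.70. Actn1 in pcDNA3.1 minus negative control ranged from -1.73 to 0.51 when 1 sample was left out.

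The replicate numbers did not pair the arrays: deviations of same-numbered arrays correlated at -0.096 to 0.049 between groups. With the replicate number as a block, 8 samples gave 2110 and 1 calls in the first 2 comparisons. Member calls were then 3 and 5 in siRNA minus negative control and siRNA minus both plasmid groups, against 7.13% and 14.1% of all probes. The block on 12 arrays gave 11253, 3455, 13632 and 14934 calls, with 10, 3 and 8 member calls in the first 3. Member differences under 0.5 that did not pass numbered 24; of their 517 values under the alternatives 44 changed sign and 34 passed. Depth limits Actn2 and A_55_P2246235 of Tpm3, which were near background.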
